A study of Mus musculus with 4 samples.

Results

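Genes of the Wnt pathway were followed in mouse primary osteoblasts under 4 treatments. The set held 44 genes, 19 Wnt ligands, 15 receptors and co-receptors, β-catenin with 4 TCF/LEF factors, and 5 feedback or surface inhibitors. It took in every non-control probe on the array that carries the name of a listed gene, which gave 61 of 55681 probes. Of these, 54 probes passed the background filter (well above it on 2 arrays or more), and 39 of the 44 genes kept such a probe among 24041 genes tested.

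The study asked what governs the differentiation of osteoblasts under BMP2. Primary osteoblasts grown in 10% serum received no protein, LOXL2 at 4 µg/ml, BMP2 at 200 ng/ml, or BMP2 at 200 ng/ml with LOXL2 at 4 µg/ml. All 4 cultures were taken at 72 h. BMP2, a bone morphogenetic protein, induces bone and cartilage. LOXL2 is an extracellular enzyme of the lysyl oxidase family that forms crosslinks in the matrix. The labels call the cells of the arrays without BMP2 pre-osteoblasts and those of the arrays with BMP2 osteoblasts. They do not give the strain, the age of the animals or the bone of origin. From each culture, 100 ng of RNA was labelled for 1 single-colour Agilent array, so that no treatment was replicated. All 4 arrays lay on 1 slide with 1 scan time.

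Wnt proteins are secreted glycolipoproteins that bind Frizzled receptors together with the co-receptors LRP5 and LRP6. Binding stops the breakdown of β-catenin, which then enters the nucleus and switches on genes through TCF/LEF factors. Some of those genes, such as Axin2, act back as brakes on the pathway. Other Wnts act through ROR receptors and planar polarity proteins without β-catenin. In the skeleton the pathway is known for promoting bone formation and for steering common progenitors towards osteoblasts rather than chondrocytes.

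The arrays were alike in depth. Between 60.36% and 62.2% of non-control spots were well above background, no spot was saturated, and probes on 10 spots had a median standard deviation of 0.0651 to 0.0674 in log2 signal within an array. That figure covers spot error and not the spread between cultures. All 9 osteoblast markers, among them Runx2, Sp7, Bglap and Col1a1, were well above background on all 4 arrays. Intensities below are scaled so that the 75th percentile of every array is 726. They have no error of their own, since each is 1 array, and levels of different probes are not compared.

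With BMP2, 8 of the 39 Wnt genes rose and 11 fell in limma at an adjusted p under 0.05. Among all 24041 genes tested 20.3% were called, 10.3% as higher and 9.97% as lower, while 48.7% of the Wnt genes were called. The Wnt genes were chosen with earlier results of these data known, so the comparison of shares is a description only. The 8 that rose were the ligands Wnt4 and Wnt10b, the receptors Fzd3, Fzd5 and Fzd9, the nuclear factors Tcf7 and Lef1, and the surface inhibitor Kremen1. The 11 that fell were the ligands Wnt2, Wnt5a, Wnt6 and Wnt10a, the receptors Fzd2, Fzd8, Lrp6 and Ror1, and the feedback inhibitors Axin2, Nkd1 and Nkd2. The median BMP2 change of the 39 genes was 0.037 on the log2 scale beside 0.017 for all genes. The median size of the change, regardless of sign, was 0.53 beside 0.205. Fewer cells of a type and less RNA per cell cannot be told apart in these bulk samples.

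Changes are fitted over both pairs of arrays, those without and those with LOXL2, and given in log2 units with their standard error. The error rests on 1 residual degree of freedom, and no label tells if separate preparations of cells were used, so that p-values may reflect technical spread only. With no filter on dim probes, no gene of the array passed the adjusted threshold, and the members' calls below were lost with adjusted p-values of 0.09 to 0.12.

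**Figure D1:**
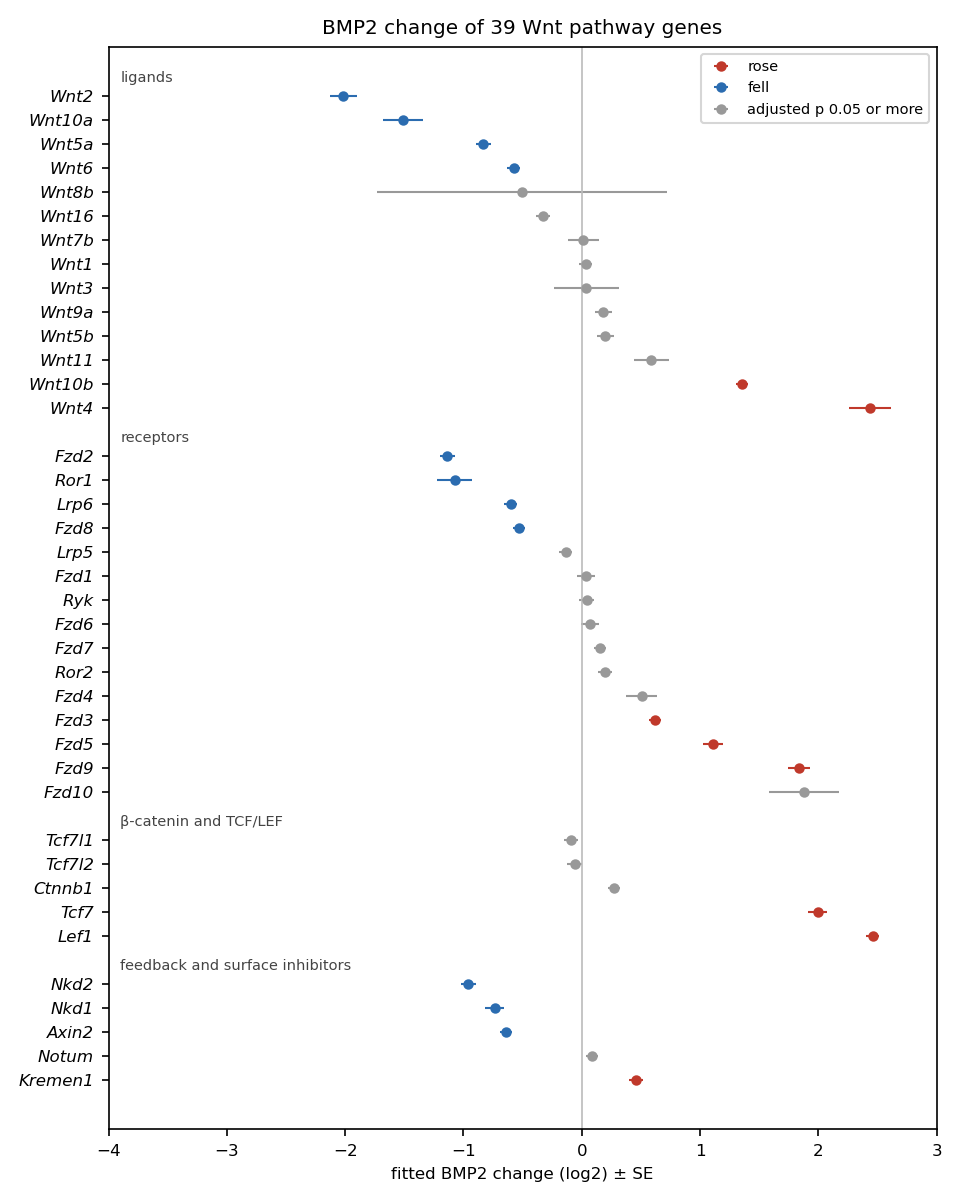
Fitted BMP2 change on the log2 scale (x axis, points) with its standard error (bars) for the 39 Wnt genes above background, grouped by role. Red points mark the 8 genes that rose, blue points the 11 that fell and grey points the 20 with an adjusted p of 0.05 or more in limma; both directions occur among ligands and receptors, while the called TCF/LEF factors are all on the right.

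Promoters are shown first for 3 genes that rose and 1 that fell, each the RefSeq window of the 250 bases before the gene's outermost annotated start (GRCm38.p6). They were picked among called genes whose window lies outside the annotated gene, after their values were seen. Capitals mark GGCGCC, a GC-rich motif that SMADs of the BMP pathway can bind. Of the 4 such windows of genes that rose, the 3 printed are those that hold it. The window of Fzd5, which rose, and that of Ror1, which fell, also qualified, hold no GGCGCC and are not printed.
Lef1 (chr3:131110047-131110296, plus strand): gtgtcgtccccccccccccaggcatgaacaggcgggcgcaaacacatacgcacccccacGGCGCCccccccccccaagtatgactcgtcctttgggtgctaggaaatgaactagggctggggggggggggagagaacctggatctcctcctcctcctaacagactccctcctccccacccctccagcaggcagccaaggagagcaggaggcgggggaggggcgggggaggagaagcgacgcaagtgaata
Wnt4 (chr4:137277385-137277634, plus strand): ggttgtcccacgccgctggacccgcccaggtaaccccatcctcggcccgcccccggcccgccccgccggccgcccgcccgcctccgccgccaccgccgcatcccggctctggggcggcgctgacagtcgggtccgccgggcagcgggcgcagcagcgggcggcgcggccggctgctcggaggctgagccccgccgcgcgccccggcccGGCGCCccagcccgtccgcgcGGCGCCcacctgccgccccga
Fzd9 (chr5:135251048-135251297, minus strand): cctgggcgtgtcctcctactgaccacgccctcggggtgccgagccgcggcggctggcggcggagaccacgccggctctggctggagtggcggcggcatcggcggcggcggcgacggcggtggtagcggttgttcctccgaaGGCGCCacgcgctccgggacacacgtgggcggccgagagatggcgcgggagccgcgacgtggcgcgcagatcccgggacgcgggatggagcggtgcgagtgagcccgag
Nkd2 (chr13:73847632-73847881, minus strand): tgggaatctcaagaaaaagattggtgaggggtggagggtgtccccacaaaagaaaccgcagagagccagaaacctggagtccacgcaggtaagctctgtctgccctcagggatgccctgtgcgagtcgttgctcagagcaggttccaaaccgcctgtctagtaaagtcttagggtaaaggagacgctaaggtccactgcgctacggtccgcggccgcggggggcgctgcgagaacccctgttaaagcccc

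The windows were searched on both strands for GGCGCC, which reads the same on either strand, and for the TCF/LEF core, CTTTG followed by 2 letters that are each A or T. Only the Wnt11 window held both motifs, at places that do not overlap. Promoters were listed for 32 of the 44 Wnt genes, 41 windows in all. GGCGCC was in 16 of the 41 windows, 39% beside 9.59% of the 32851 promoters of the table, and Lef1 counts with 2 overlapping windows that share the match. The Wnt windows were also richer in G and C, with a median of 69.2% beside 52.4% for all promoters, and the part of base composition in the motif share was not tested. Of the 6 genes that rose and have a listed promoter, 4 (Lef1, Tcf7, Wnt4 and Fzd9) held GGCGCC in at least 1 window and Wnt10b and Fzd5 did not. Of the 6 that fell and have a listed promoter, only Wnt2 held it, and among the 16 not called 7 did. The TCF/LEF core was in 5 of the 41 windows, 12.2% beside 14.8% of all promoters, and in no window of a gene that fell, Axin2 included. A match in these letters is a description and does not show binding. Several listed windows start at internal transcripts and lie within the gene, as for Tcf7, Axin2 and Wnt2.

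Among the ligands, 2 rose and 4 fell of the 14 tested, with a median change of 0.02. Wnt4, a ligand known from kidney and gonad development and from cartilage, read 161 untreated, 176 under LOXL2, 715 under BMP2 and 1160 under both proteins. Both BMP2 arrays were thus above both arrays without it, and the combined array was the highest. The fitted rise was 2.43 ± 0.18 (limma adjusted p = 0.0262), for the probe at chr4:136855342-136855401 on mm9, the build of the probe positions in the files. Its promoter, shown above, holds GGCGCC at 2 places. Wnt10b, a ligand known to favour bone over fat formation, read 300, 358, 771 and 908 in the same array order. It rose by 1.35 ± 0.05 (limma adjusted p = 0.0206; probe at chr15:98602209-98602268), with nearly equal BMP2 differences of 1.36 without and 1.34 with LOXL2.

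Wnt2 dropped out of the measurable range with BMP2. Its intensity was 53.8 untreated and 52.4 with LOXL2, and it was not well above background on the arrays with BMP2, where it read 11.8 and 14.6. It was therefore at least 3.64-fold lower with BMP2 (probe at chr6:17938994-17939053). The fitted change of -2.02 ± 0.12 (limma adjusted p = 0.0229) rests on those readings below background. The probe passed the filter only through the arrays without BMP2, so the direction of its change is not independent of the filter. Wnt10a, which is linked to tooth and hair development, read 410 untreated, 468 with LOXL2, 173 with BMP2 and 137 with both. It fell by 1.51 ± 0.17 (limma adjusted p = 0.0362; probe at chr1:74850633-74850692). Wnt6, whose gene is the neighbour of Wnt10a, read 274, 273, 189 and 178 in that order and fell by 0.58 ± 0.06 (limma adjusted p = 0.0322; probe at chr1:74831461-74831520). The probes of these neighbours, both lower with BMP2, lie 19.2 kb apart on chromosome 1. Wnt5a, the best known ligand of the branch that works without β-catenin, read 3610 untreated, 3200 with LOXL2, 1950 with BMP2 and 1870 with both. It fell by 0.83 ± 0.06 (limma adjusted p = 0.0263; probe at chr14:29336664-29336723), and its 4 values did not overlap between arrays with and without BMP2.

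The other 8 ligands tested had fitted changes between -0.50 and 0.59 with limma adjusted p-values of 0.0606 to 0.954. Wnt11, a ligand of the branch without β-catenin, came to 0.59 ± 0.15 (adjusted p = 0.0897) with intensities of 102, 108, 132 and 189. Wnt16, known for limiting cortical bone loss, came to -0.33 ± 0.06 (adjusted p = 0.0606). Values for Wnt5b (0.20), Wnt9a (0.18), Wnt3 (0.04), Wnt1 (0.03) and Wnt7b (0.01) lay near 0 in the same fit. Wnt1 lies next to Wnt10b, 21.5 kb away on chromosome 15 by mean probe position, and read 1660, 1620, 1660 and 1700 while Wnt10b rose. A second Wnt1 probe was not well above background on any array, at 2.94 to 3.29. The ligands Wnt2b, Wnt3a, Wnt7a, Wnt8a and Wnt9b were not well above background on any array and were not tested.

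Of the 15 receptors and co-receptors, 3 rose and 4 fell, with a median change of 0.07. Fzd9, a Frizzled known to be needed by osteoblasts for normal bone formation, read 1810 untreated, 2330 with LOXL2, 5910 with BMP2 and 9100 on the combined array. It rose by 1.84 ± 0.09 (limma adjusted p = 0.0218; probe at chr5:135724815-135724874), and the order of its 4 values was that of Wnt4. Fzd5 read 176, 211, 408 and 423 in that array order and rose by 1.11 ± 0.08 (limma adjusted p = 0.0262; probe at chr1:64779479-64779538). Fzd3, which acts in axon guidance and planar polarity, rose less, by 0.62 ± 0.05 (limma adjusted p = 0.029; probe at chr14:65854084-65854142), from 348 and 357 without BMP2 to 528 and 555 with it.

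Fzd2 fell among the receptors. Its intensity was 11300 untreated, 10400 with LOXL2, 5370 with BMP2 and 4520 with both, and it fell by 1.14 ± 0.06 (limma adjusted p = 0.0228; probe at chr11:102467613-102467672). Ror1, a receptor of the kinase-like type that binds Wnt5a, read 53.7, 39.8, 21.8 and 22.1 in the same order. It fell by 1.07 ± 0.15 (limma adjusted p = 0.044; probe at chr4:100116284-100116343), a call that was lost when its probes were averaged (adjusted p = 0.0743) or each tested alone (0.055). The co-receptor Lrp6 read 2690 and 2790 without BMP2 and 1820 and 1800 with it, and fell by 0.60 ± 0.06 (limma adjusted p = 0.0307; probe at chr6:134400440-134400499). Its relative Lrp5 read 5080, 5260, 4660 and 4740 and was not called at -0.14 ± 0.05 (adjusted p = 0.172). Fzd8 read 609, 572, 423 and 395 and fell by 0.53 ± 0.05 (limma adjusted p = 0.0322).

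Fzd10 was not called but differed at least 2-fold in both pairs of arrays. It was not well above background untreated, at 6.76, and read 15.6 with LOXL2, 34.7 with BMP2 and 41.1 with both. Its fitted change was 1.88 ± 0.29 with a limma adjusted p of 0.0505, and median centring of the arrays in place of the 75th percentile brought it below the threshold (1.93, adjusted p = 0.0467). It also passed under normexp background correction (adjusted p = 0.00523), which cut the fitted change to 0.46, and under trend and robust settings (adjusted p = 0.00161). Fzd4 came to 0.51 ± 0.13 (adjusted p = 0.0965). The remaining receptors, Fzd1, Fzd6, Fzd7, Ror2 and Ryk, had fitted changes between 0.04 and 0.19 and limma adjusted p-values of 0.118 or more.

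Lef1 and Tcf7, the TCF/LEF factors that mainly activate β-catenin targets, rose, and the other 3 nuclear genes were not called. Lef1 read 80.7 untreated, 90.2 with LOXL2, 449 with BMP2 and 490 with both, which placed both BMP2 arrays far above the others. It rose by 2.46 ± 0.05 (limma adjusted p = 0.0206; probe at chr3:130926200-130926259), and its promoter, printed above, holds GGCGCC at 1 place. Tcf7, which encodes TCF1, read 106, 95.1, 393 and 406 and rose by 1.99 ± 0.08 (limma adjusted p = 0.0206; probe at chr11:52066114-52066173). For β-catenin itself (Ctnnb1) the intensities were 19300, 19000, 23100 and 23200, a fitted change of 0.27 ± 0.05 with a limma adjusted p of 0.0651. Tcf7l1, which is known mostly as a repressor, came to -0.09 ± 0.06 (adjusted p = 0.328), and Tcf7l2 to -0.06 ± 0.06 (adjusted p = 0.51). The other 2 Tcf7l2 probes read lower with BMP2, at -0.38 ± 0.06 (probe-level limma adjusted p = 0.0586) and -0.50 ± 0.13 (0.109), and were not called.

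Of the 5 feedback and surface inhibitors 3 fell and 1 rose, with a median change of -0.64. Axin2, a scaffold of the β-catenin destruction complex and a common readout of the pathway, read 491 untreated, 519 with LOXL2, 316 with BMP2 and 332 with both. It fell by 0.64 ± 0.05 (limma adjusted p = 0.0276; probe at chr11:108812034-108812093), though not when its probes were averaged (-0.55, adjusted p = 0.128). Nkd2, a Dishevelled-binding inhibitor, read 11500, 11200, 6150 and 5580 and fell by 0.96 ± 0.06 (limma adjusted p = 0.0245; probe at chr13:73956776-73956835). Its relative Nkd1 read 3430, 2800, 1920 and 1800 and fell by 0.74 ± 0.08 (limma adjusted p = 0.0352; probe at chr8:91116160-91116219). Kremen1, a surface protein that removes LRP6 together with Dickkopf, read 12300, 12000, 16500 and 16900 and rose by 0.46 ± 0.06 (limma adjusted p = 0.0396; probe at chr11:5091749-5091808). With each probe tested alone, that probe missed the threshold (adjusted p = 0.0528), while the other Kremen1 probe was called at 0.73 ± 0.07 (probe-level limma adjusted p = 0.0386). Notum, an enzyme that strips the lipid from Wnts, read 19100, 19900, 20300 and 21100 and was not called at 0.09 ± 0.05 (adjusted p = 0.302).

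**Figure D2:**
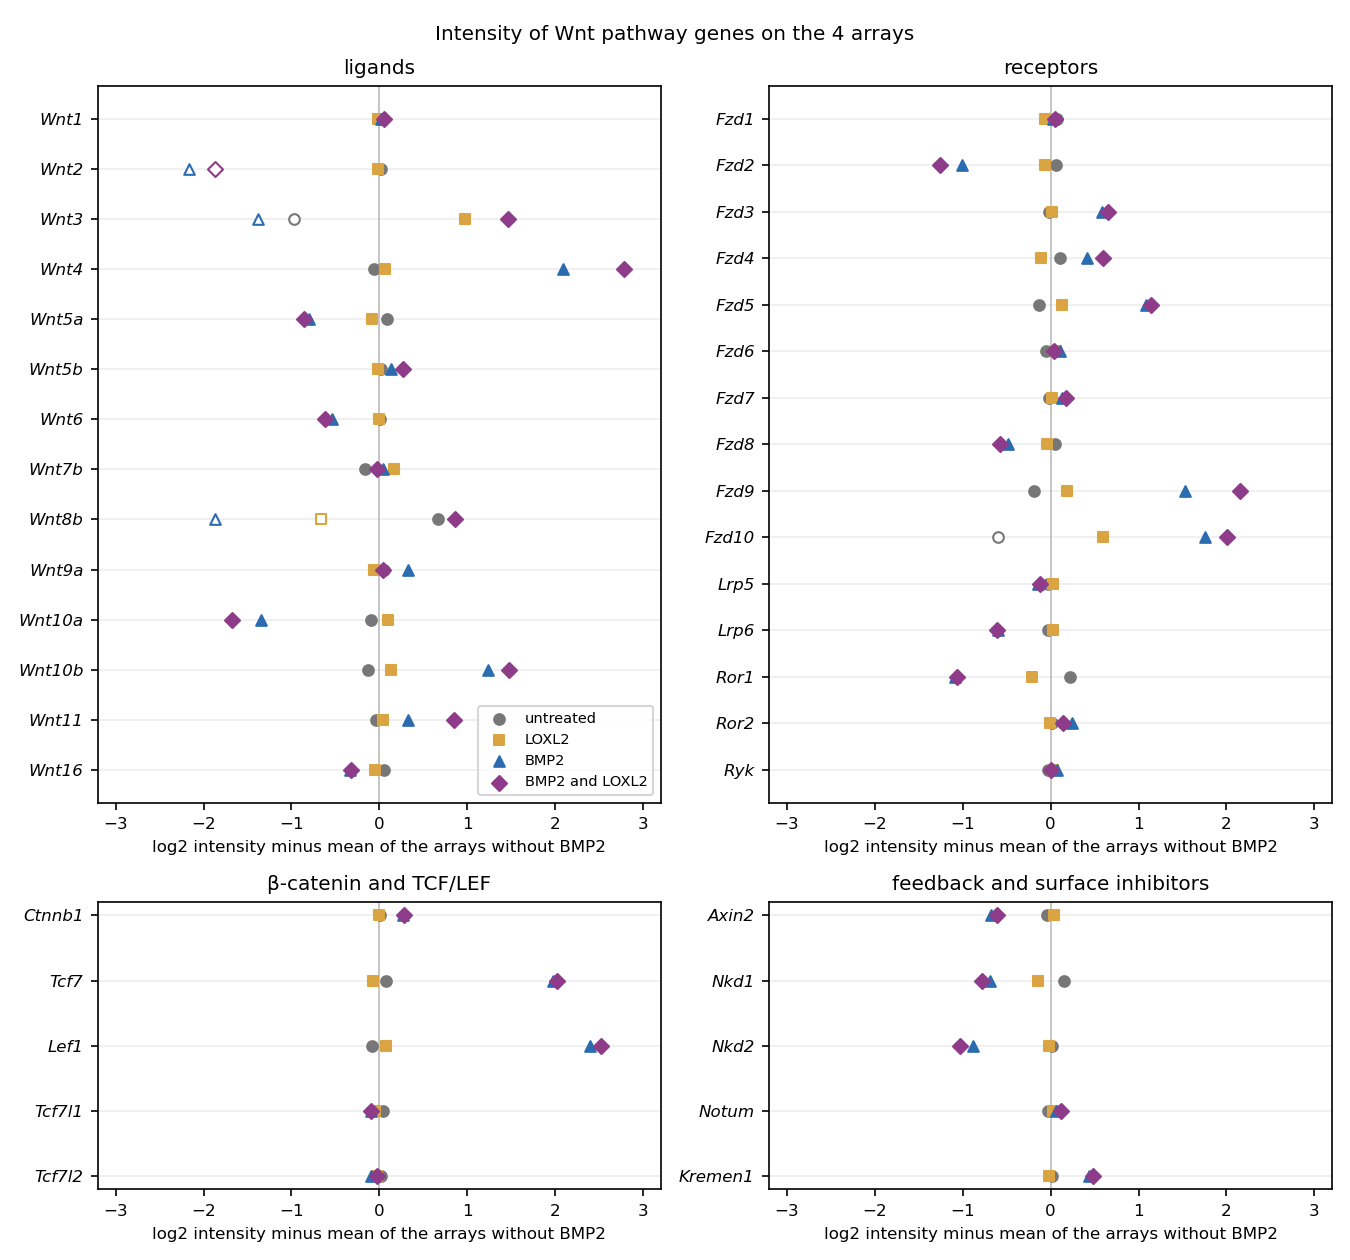
Log2 intensity of each Wnt gene on the 4 arrays minus its mean over the 2 arrays without BMP2 (x axis), in panels by role; each point is 1 array, grey circles are untreated, orange squares LOXL2, blue triangles BMP2 and purple diamonds BMP2 and LOXL2, and open points are not well above background. Lef1, Tcf7, Wnt4 and Fzd9 lie to the right on both BMP2 arrays, and Wnt2, Wnt10a and Fzd2 to the left. Wnt3 separates by LOXL2 but passed the background filter only through the arrays with LOXL2.

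Probes of the same gene were compared where several were above background, which held for 14 genes. Their fitted BMP2 changes had the same sign in 13. At the probe level 4060 of 33976 probes (11.9%) were called. Lef1 rose on both its probes, by 2.46 and 2.41 (probe-level limma adjusted p = 0.0298 and 0.032), and the second spans an exon junction, its ends lying 18162 bases apart on chromosome 3. Wnt4 rose by 2.43 and 1.80, and Nkd2 fell by 0.96 and 0.88, on probes that were each called. Fzd2 fell by 1.14 and 1.12. The second probe of Fzd5 came to 0.58 ± 0.11 (probe-level limma adjusted p = 0.0714) and was not called. In the same fit the second probes of Lrp6 (-0.40, adjusted p = 0.0763), Nkd1 (-0.54, 0.137) and Axin2 (-0.46, 0.386) were not called either. The second Tcf7 probe was not well above background without BMP2, at 3.42 and 5.37, read 23.7 and 23.1 with it, and was at least 1.73-fold higher. That probe passed the filter only through the arrays with BMP2, so it gives no separate support for the rise.

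Fzd7 and Wnt16 were the genes whose probes differed most, by 1.08 and 0.89 in log2 change. In both, the probe nearer the start of the gene was called lower, while the brighter downstream probe, which stands for the gene above, was not called. The oligonucleotides of 60 bases that showed the fall are printed for reference, with mm9 positions from the files. Each has 2 of its 3 forward frames free of stop codons.
Fzd7 (chr1:59541367-59541426, plus strand): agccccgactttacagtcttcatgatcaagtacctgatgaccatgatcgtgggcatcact
Wnt16 (chr6:22241135-22241194, plus strand): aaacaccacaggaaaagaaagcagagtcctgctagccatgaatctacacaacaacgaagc
The Fzd7 probe printed read 1070 untreated, 1000 with LOXL2, 585 with BMP2 and 507 with both and fell by 0.93 ± 0.07 (probe-level limma adjusted p = 0.0347). The other Fzd7 probe, 1.82 kb downstream, read 1530, 1560, 1690 and 1750, a change of 0.15 ± 0.06 (adjusted p = 0.179). The Wnt16 probe printed read 176, 155, 86 and 58.4 and fell by 1.22 ± 0.13 (probe-level limma adjusted p = 0.0432). The other Wnt16 probe, 6.67 kb downstream, read 369, 345, 283 and 284 (-0.33 ± 0.06, adjusted p = 0.0773). Which transcripts each probe reads was not tested, and exon and UTR annotation on mm9 was not used here. The Fzd7 probe printed shares runs of letters with the probe that stands for Fzd2, which also fell. Whether the Fzd7 probe also reads Fzd2 was not tested. For Fzd7 and Wnt16 the BMP2 result depends on the probe, and so do the probe-level calls of Fzd5, Lrp6, Nkd1 and Axin2.

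**Figure D3:**
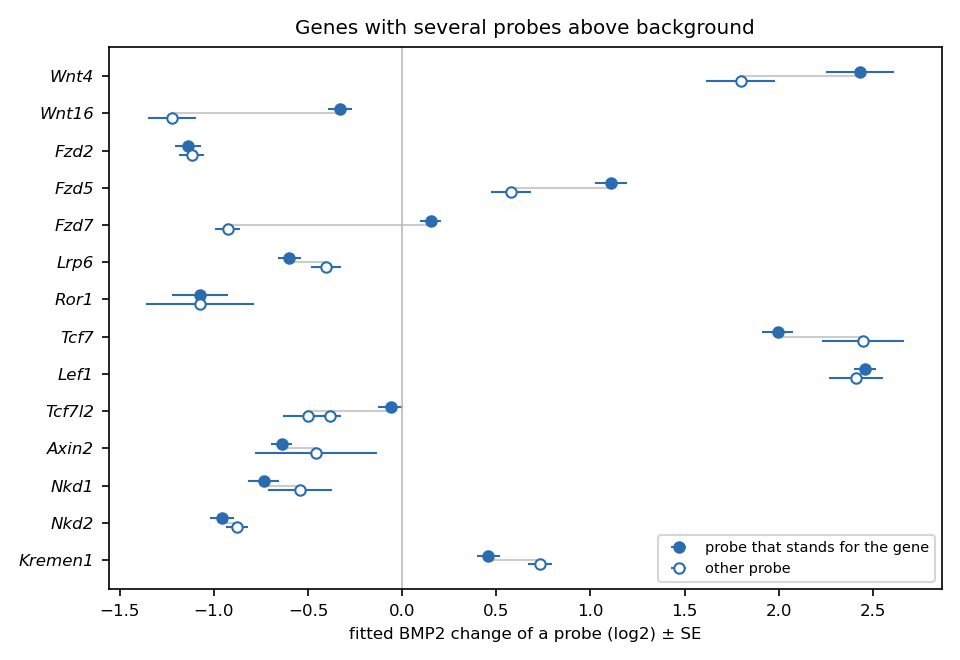
Fitted BMP2 change (x axis, log2) with its standard error (bars) for every probe above background of the 14 Wnt genes with several such probes; filled points are the probe that stands for the gene, open points the others. Both points lie on the same side of 0 for all genes except Fzd7, where they are 0.15 and -0.93.

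The 2 pairs of arrays share no array, and each gives a BMP2 difference without replicates. The difference had the same sign in both pairs for 33 of 39 Wnt genes (84.6%) beside 79.4% of all genes. Without LOXL2, 7 Wnt genes were at least 2-fold higher and 5 at least 2-fold lower, beside 6.74% of all genes in either direction. With LOXL2 the counts were 8 and 4, beside 6.69%. At least 2-fold the same way in both pairs were 10 of the 39, beside 4.8% of all genes tested. These were Wnt2, Wnt4, Wnt10a, Wnt10b, Fzd2, Fzd5, Fzd9, Fzd10, Tcf7 and Lef1. The BMP2 difference of Lef1 was 2.48 without and 2.44 with LOXL2, and that of Tcf7 was 1.89 and 2.09. For Wnt4 the values were 2.15 and 2.72, for Wnt10a -1.25 and -1.77, and for Fzd9 1.71 and 1.97. The difference was smaller with LOXL2 for Fzd10 (2.36 without and 1.40 with), Wnt2 (-2.18 and -1.85) and Fzd5 (1.21 and 1.01). It was also slightly smaller for Wnt10b (1.36 and 1.34). The values of Fzd10 and Wnt2 include readings below background. Whether the larger or smaller values with LOXL2 exceed the spread between cultures was not tested.

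A difference between these 2 BMP2 differences of 1 or more was seen in 2.3% of all genes and in 1 Wnt gene, Wnt8b. It read 25.2 untreated, 10.0 with LOXL2, 4.36 with BMP2 and 28.7 with both, and was well above background only on the untreated and the combined arrays. Each pair thus sets 1 reading above background against 1 below it, and only bounds can be given. The probe passed the filter only through the untreated and combined arrays, so this pattern is not independent of the filter. Wnt8b was at least 1.73-fold lower with BMP2 in the pair without LOXL2 and at least 2.22-fold higher in the pair with it. Under normexp background correction the count of such Wnt genes was 0, and the full model has no residual degree of freedom for a test.

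**Figure D4:**
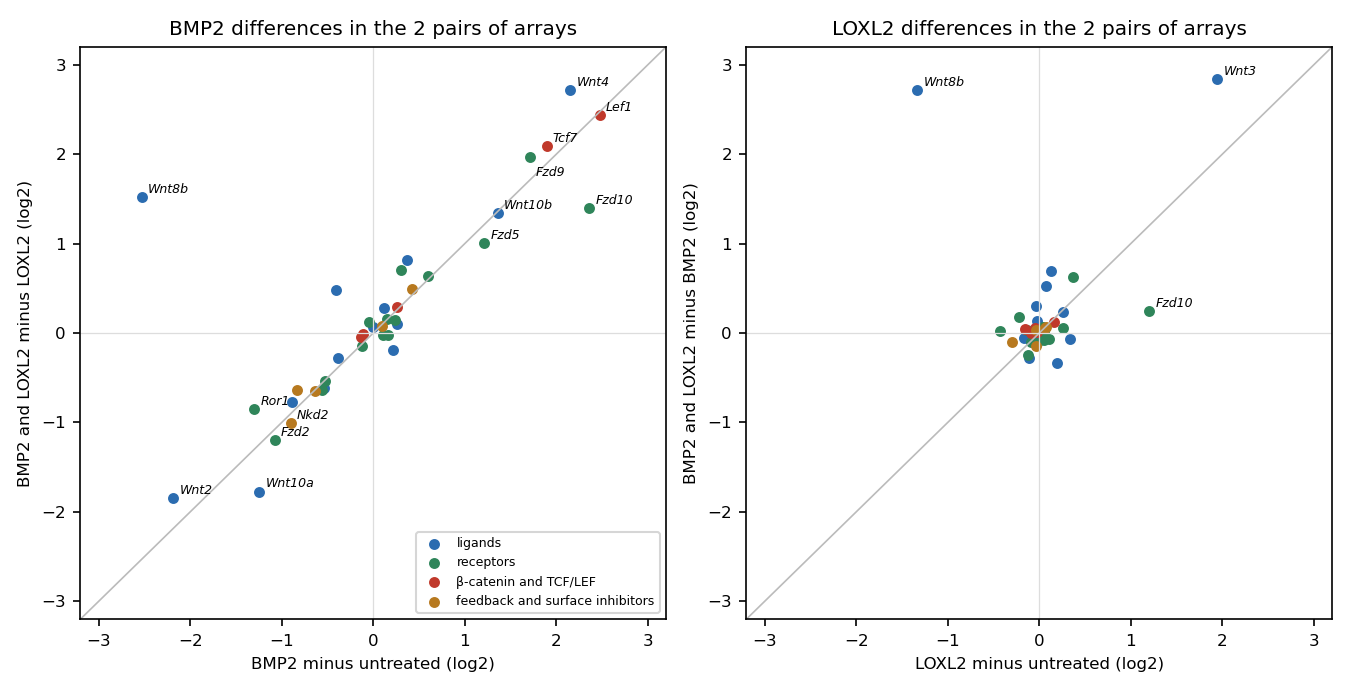
Left, BMP2 minus untreated (x axis) against BMP2 and LOXL2 minus LOXL2 (y axis); right, LOXL2 minus untreated (x axis) against BMP2 and LOXL2 minus BMP2 (y axis), all in log2 units. Each point is 1 of 39 Wnt genes coloured by role, the diagonal marks equal differences, and genes past a 2-fold difference as read are named, readings below background included; most points of the right panel lie near 0, and Wnt8b lies off the diagonal in both.

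LOXL2 gave no call among the Wnt genes. In limma 0 of 39 passed the adjusted threshold (smallest adjusted p = 0.789), as did 0% of all genes (smallest 0.48), and 3 Wnt genes had an unadjusted p under 0.05 beside 6.18% of all genes. These were Wnt10b (0.25), Fzd9 (0.50) and Wnt3, whose change is a bound given below. Wnt10b was higher with LOXL2 in both pairs, by 0.25 and 0.24, and Fzd9 by 0.37 and 0.62.

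Wnt3, singled out after its values were seen, was well above background only on the arrays with LOXL2. It read 4.71 untreated and 3.55 with BMP2, against 18.2 with LOXL2 and 25.4 with both, so that it was at least 1.49-fold higher with LOXL2 (limma adjusted p = 0.789). The lowest signal well above background was 12.9 to 14.6 on these arrays. Against those floors Wnt3 was at least 1.28-fold higher without and 1.74-fold higher with BMP2. The Wnt3 probe passed the filter only through the arrays with LOXL2, so the direction of its change is not independent of the filter. Wnt8b, likewise below background on one side of each pair, was at least 1.95-fold lower with LOXL2 alone and at least 1.97-fold higher with LOXL2 added to BMP2. No Wnt gene with both readings of a pair above background differed 2-fold for LOXL2. As read, 0.878% of all genes differed by 2-fold or more for LOXL2 without BMP2, 1.12% with it and 0.133% the same way in both pairs.

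In the intracellular machinery of the pathway no call was made with BMP2 among the 2 secretion genes Porcn and Wls, the 15 genes of the destruction complex and Dishevelled, or the 10 nuclear cofactors. Their fitted changes ran from 0.08 to 0.23, from -0.32 to 0.30 and from -0.27 to 0.35. In these lists 1, 5 and 3 genes had an unadjusted limma p under 0.05, beside 10323 of all 24041 genes. In planar polarity 1 of 11 genes rose, the cadherin Celsr3 (1.18), and 1 fell, the formin Daam2 (-0.47). That is 18.2% called, near the 20.3% of all genes. Among genes of receptor turnover and other modulators 1 of 8 rose, the LRP chaperone Mesd (0.36), and 2 fell, Dact1 (-0.63) and Reck (-0.67), 37.5% called. The turnover genes Rnf43 (-0.33, limma adjusted p = 0.294) and Znrf3 (0.31, 0.0542) were not called. Of the 10 further target genes 3 (30%) fell and none rose, namely the inhibitor Apcdd1 (-0.81), Ccn5 (-0.75) and the repressor Twist1 (-0.50). The classical targets Ccnd1 (-0.40, adjusted p = 0.0503) and Myc (-0.19, adjusted p = 0.11) were not called.

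Extracellular modulators included the largest BMP2 changes of these lists. These lists too were chosen with earlier results of these data known, so their shares called are a description only. Of 9 secreted inhibitors tested, 2 rose and 4 fell, 66.7% called beside 20.3% of all genes. Wif1, which binds Wnts directly, rose by 3.86 ± 0.12, from 2650 and 2720 to 34000 and 44500. Sfrp4 rose by 1.05 ± 0.06, from 159 and 176 to 338 and 356. Sfrp2 fell by 5.07 ± 0.12, from 39500 and 30200 to 1340 and 790. The other 3 that fell were the LRP ligand Sostdc1 (-3.83), Sfrp1 (-1.96) and Dkk2 (-1.92). Among the R-spondins and their receptors 2 of 6 rose and 2 fell, also 66.7% called. The receptors Lgr6 (at least 13.8-fold higher) and Lgr4 (0.99) rose, and Lgr5 (-6.42) fell with the ligand Rspo2 (-0.49). Their limma adjusted p-values were 0.0206 for Wif1, Sfrp2, Lgr5 and Lgr6 and 0.0361 or less for the others. The Lgr6 probe passed the filter only through the arrays with BMP2, so the direction of its change is not independent of the filter.

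Markers of other cells moved with BMP2 beside these changes. Among all genes 10.3% were called higher and 9.97% lower in the same fit. All 8 chondrocyte markers rose, and their summed intensity was 40300 untreated, 46900 with LOXL2, 181000 with BMP2 and 274000 with both. Col10a1 was not well above background untreated, and Matn1 on neither array without BMP2. The Matn1 probe thus passed the filter only through the arrays with BMP2, so the direction of its change is not independent of the filter. Of 6 tendon and fibroblast markers 4 fell, with sums of 58900, 59200, 46000 and 42800, and of 10 macrophage and leukocyte markers 4 fell, with sums of 28400, 29700, 24200 and 23000. None of the 6 adipocyte markers was called (sums of 8910 to 9840). The osteoblast markers kept sums of 1270000 to 1370000, while 4 of 9 rose, Bglap, Ibsp, Sp7 and Alpl. A few bright probes carry most of these sums, such as Sparc, Col1a1 and Col1a2 for osteoblasts, Col2a1 and Comp for chondrocytes, Thy1 for tendon and Kdr for endothelium. The part of any change in cell make-up in the Wnt results was not tested. Endothelial markers summed to 21600 to 23000 with 2 of 4 lower and Emcn and Tie1 not above background. Muscle markers summed to 16900, 16100, 7430 and 6990 with 1 of 4 lower, Acta1, which makes up nearly the whole sum (16800, 16000, 7340 and 6890), and Ckm was not above background. Epithelial markers summed to 279 to 312 with 1 of 5 lower, Cdh1, whose probe passed the filter only through the arrays without BMP2. Epcam was not above background. Nerve and glia markers summed to 5420, 5690, 9080 and 11900 with 2 of 5 higher and 1 lower.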

How the data were processed

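Gene expression was measured on 4 single-colour Agilent arrays, 1 per treatment. The authors deposited scanner files with intensity values from Agilent Feature Extraction 10.7.3.1 (submitters' processing notes). A fitted spatial surface was subtracted, per the file headers, and a multiplicative trend divided out; 21.68% to 24.26% of spots carry surrogate values. The deposited value table holds the same intensity values per probe, unscaled (equal within 0.1% for 99.52% of probes or more; column medians 40.81 to 41.72).

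Processed signals were taken to log2, the array's 75th percentile was subtracted, and 109 to 144 outlier spots per array were left out. Spots of a probe were averaged, and probes well above background on at least 2 arrays kept. The probe with the highest mean stood for a gene. Additive effects of BMP2 and LOXL2 were fitted with limma 3.58.1 in R 4.3.3 (two-sided, Benjamini-Hochberg over 24041 genes, threshold 0.05) and tested on simulated data; empirical Bayes added 1.72 degrees of freedom. Folds of genes under background on all arrays of a side are bounds set by the lowest intensity above background. Symbols were updated through RefSeq GRCm38.p6 (26762 probes matched), the source of the promoters. Named members are those called, at least 2-fold in both BMP2 pairs, or with a difference of differences of 1 or more. The called genes of the other pathway lists are all named. Members and lists were chosen with earlier results of these data known. The number of arrays limits the precision. The closing section gives 10 alternatives.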

Additional observations from a re-analysis of the deposited data

Results flagged for a closer look

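The BMP2 difference of Wnt8b was -2.53 without LOXL2 and 1.52 with it, opposite in sign between the 2 pairs of arrays as read. Both values rest on a reading below background, at 4.36 with BMP2 and 10.0 with LOXL2. Against the lowest signal above background the pairs give at least 1.73-fold lower and at least 2.22-fold higher. Each pair is 1 array against 1, and the difference between the pairs was not tested. Wnt8b was well above background only on the untreated array (25.2) and the combined array (28.7). It passed the filter only through these arrays, so the opposite signs are not independent of the filter. A second Wnt8b probe was not well above background on any array, at 3.03 to 6.20.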

How the results depend on the processing

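The 19 calls kept their direction under all 10 alternatives, or 9 for Wnt2, which a filter on all 4 arrays leaves out. Quantile normalization, the deposited value table and keeping outlier spots left 8 Wnt genes higher and 11 lower. Median centring and a filter on all 4 arrays gave 9 and 11, every probe on its own 7 and 10, and the mean of a gene's probes 8 and 11. Normexp background correction gave 13 higher, 12 lower, 38 calls in the other Wnt pathway lists in place of 18, and 0 in place of 1 gene with a difference of differences of 1 or more. Trend and robust settings of the empirical Bayes step gave 16 higher, 13 lower and 41 in the other lists, and 14 genes of the array, none a Wnt member, were called for LOXL2. Over those settings calls over all genes ran from 4107 to 10389 beside 4883, apart from the settings with no filter and with every probe on its own (4060 of 33976 probes), and 47% to 60.7% of them were higher beside 50.9%; median centring moved the median of all genes to 0.07. No filter on dim probes gave 0 higher, 0 lower and 0 in the other lists, and the cause was not tested. Under that setting 23 of 44 Wnt genes had an unadjusted limma p under 0.05, beside 9259 of all 35077 genes. In the reported fit the counts were 24 of 39 Wnt genes and 10323 of 24041 genes. Normexp reduced the fitted change of Wnt2 to -0.64, of Ror1 to -0.34 and of Fzd10 to 0.46. No paired analysis was possible because each treatment has 1 array; leaving out 1 array leaves no residual degree of freedom, and the remaining pair's differences are those given above.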
